A study of Mus musculus with 30 samples.

Results

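The Ube2 genes encode most of the ubiquitin conjugating (E2) enzymes, and their transcripts were followed here across 6 groups of 3T3-L1 cells, mouse preadipocytes induced to adipogenesis. Members were the protein-coding genes whose symbol starts with Ube2 and whose raw counts summed to more than 14 over the 30 libraries. Of 37 such genes in the count table, 32 passed, among 20139 genes tested and 54232 genes listed. The rule itself uses no measured change, although the family was chosen with earlier results of these data known. The 5 that did not pass were Ube2d2b with 4 counts, Ube2u with 1 count, and Ube2dnl1, Ube2dnl2 and Ube2ql1 with 0 counts in all libraries, which allows a level of up to 0.00872 CPM (counts per 1e6 counts) for a gene at 0.

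All 6 groups were kept for 5 days in adipogenic medium and comprised 5 libraries each. The control group received no further agent. The others received pNaKtide at 0.7 uM, indoxyl sulfate (IS) at 100 uM, IS with pNaKtide, oxidized low density lipoprotein (oxLDL) at 50 ug/mL, or oxLDL with pNaKtide, at the same doses. The labels give 5 days for the treatment, whereas the methods of the study give a shorter time. IS is a uremic toxin, oxLDL is an oxidant lipoprotein, and pNaKtide is a peptide that blocks the Src-dependent signal of the Na,K-ATPase. The cells are 1 line, the labels do not say whether the 5 libraries of a group came from separate cultures, and the p-values then cover only the spread between these libraries.

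Ubiquitin is activated by an E1 enzyme, passed to the active cysteine of an E2, and attached to a substrate with the help of an E3 ligase. The E2 often decides which lysine of ubiquitin the next ubiquitin is joined to, and hence the type of chain that is built. Some E2 enzymes carry a ubiquitin-like modifier (such as NEDD8 or ISG15) in place of ubiquitin. In adipocytes, as in other cells, this system sets the turnover of many regulators, among them receptors, transcription factors and enzymes of the endoplasmic reticulum.

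Library totals ranged from 6945498 to 15159877 counts, with a median of 11524210. All 8 adipocyte markers were detected in every group, with summed levels of 11250 to 17600 CPM, and all 5 preadipocyte or fibroblast markers were detected as well, with summed levels of 2793 to 5763 CPM. The macrophage, endothelial and epithelial marker lists each summed to at most 8.69 CPM in any library. In the difference between GC-rich and GC-poor genes (log2 scale, described further on), 4 libraries lay furthest from their groups. IS replicate 4 was at 0.44 against -0.57 to -0.31 in the other 4, and pNaKtide replicate 3 at -0.19 against 0.34 to 0.46, both past Dixon's test at 95%. Control replicate 1 was at -0.32 against 0.043 to 0.54, and oxLDL + pNaKtide replicate 4 at 1.02 against 0.15 to 0.57, neither past that test. Results that rest on these libraries are also given without them. In bulk samples, fewer cells of a type and less RNA per cell cannot be told apart.

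To show what lies before the start sites of genes that moved in opposite directions, 250 bases upstream of the start were read from RefSeq (GRCm38.p6). A window was available for 25 of the 32 members. Among those without one were Ube2d2a, Ube2e3, Ube2g2, Ube2o, Ube2v2 and Ube2w. The 5 windows printed belong to genes over-expressed (Ube2b, Ube2g1 and Ube2h) or under-expressed (Ube2l6 and Ube2m) with oxLDL, were chosen after those values were seen, and lie outside the annotated gene body. They are at chr11:52000787-52001036 (minus strand), chr11:72607011-72607260 (plus strand), chr6:30304540-30304789 (minus strand), chr2:84798578-84798827 (plus strand) and chr7:13038276-13038525 (minus strand), in this order. Each is written 5′ to 3′, and capitals mark 4 motifs on either strand. The first is the GC box, read as GGGCGG. The second is the CCAAT box, read as those letters. The third is the E-box, which was searched as CACGTG. The last is the short cAMP response element, for which TGACG was searched.
Ube2b: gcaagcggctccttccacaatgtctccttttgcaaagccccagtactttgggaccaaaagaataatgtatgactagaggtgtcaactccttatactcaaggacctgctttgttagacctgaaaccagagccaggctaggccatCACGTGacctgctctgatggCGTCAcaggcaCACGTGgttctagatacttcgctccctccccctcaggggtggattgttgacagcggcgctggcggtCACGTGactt
Ube2g1: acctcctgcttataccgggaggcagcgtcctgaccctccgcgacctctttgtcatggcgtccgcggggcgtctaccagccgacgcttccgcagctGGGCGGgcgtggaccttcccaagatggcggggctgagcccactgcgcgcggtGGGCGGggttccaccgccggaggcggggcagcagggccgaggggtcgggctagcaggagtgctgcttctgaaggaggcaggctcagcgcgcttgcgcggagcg
Ube2h: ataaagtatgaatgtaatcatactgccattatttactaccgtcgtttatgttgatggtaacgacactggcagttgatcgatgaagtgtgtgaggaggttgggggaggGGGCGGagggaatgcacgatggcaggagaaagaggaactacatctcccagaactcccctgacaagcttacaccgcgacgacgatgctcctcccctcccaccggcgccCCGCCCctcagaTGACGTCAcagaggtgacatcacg
Ube2l6: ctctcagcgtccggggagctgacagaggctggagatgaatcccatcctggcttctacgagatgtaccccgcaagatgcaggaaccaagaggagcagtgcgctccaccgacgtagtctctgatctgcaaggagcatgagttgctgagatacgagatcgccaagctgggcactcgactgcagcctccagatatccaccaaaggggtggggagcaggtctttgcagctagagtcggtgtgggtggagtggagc
Ube2m: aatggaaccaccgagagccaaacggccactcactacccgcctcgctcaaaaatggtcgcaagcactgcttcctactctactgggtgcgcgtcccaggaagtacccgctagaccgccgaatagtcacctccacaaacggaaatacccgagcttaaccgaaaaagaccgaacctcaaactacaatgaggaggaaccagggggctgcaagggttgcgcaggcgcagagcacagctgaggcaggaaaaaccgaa

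The window of Ube2b held 3 E-boxes and 1 short cAMP response element, and no GC box. The windows of Ube2g1 and Ube2h held 2 GC boxes each, and that of Ube2h also held the whole cAMP response element TGACGTCA, which overlaps the short form. The windows of Ube2l6 and Ube2m held none of these letters. Over the 25 windows, 17 (68.0%) held a GC box, against 33.0% of 27025 windows of all genes, and 6 (24.0%) held a CCAAT box, against 34.5%. The E-box was in 2 (8% against 6.04%), the short cAMP response element in 7 (28.0% against 17.8%), the whole one in 1 (4.00% against 1.60%), and the core of the NRF1 motif (GCGCATGC) in 0 (against 2.31%). The median GC content of the Ube2 windows was 65.2%, and that of all windows 52.0%. The windows of all genes include genes not tested here, so these shares are not matched for expression. Some Ube2 windows lie inside the annotated gene, among them those of Ube2a, Ube2e2, Ube2l3, Ube2q2, Ube2r2 and Ube2s. These matches describe letters in a window and not binding.

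In control cells the level of the members per length (FPKM, fragments per kilobase and per 1e6 fragments) ran from 50.0 to 0.398. The highest mean FPKM was that of Ube2g2, which serves the degradation of proteins from the endoplasmic reticulum (49.99 ± 4.41, SD, n = 5), followed by Ube2m, which carries NEDD8 to cullins (45.6 ± 4.03), and Ube2h, the E2 of the CTLH ligase (40.2 ± 6.81). The lowest were Ube2v1 (1.159 ± 0.389), Ube2cbp (0.534 ± 0.266) and Ube2t, which acts in the Fanconi anemia pathway (0.398 ± 0.106). Ube2cbp is named for binding Ube2c and is not itself an E2 of the usual fold. Of the 31 pairs of neighbours in this order, 27 had overlapping ranges of the 5 libraries. The pairs that did not overlap were Ube2z above Ube2l3, Ube2a above Ube2r2, Ube2q1 above Ube2k, and Ube2c above Ube2d3. This order depends on the length assigned to a gene, and the annotated exons of Ube2d3 cover 24499 bases against 2600 for Ube2c. In mean CPM of control, not divided by length, each of these pairs stood the other way round. The means were 159 and 191 CPM, 74.0 and 110 CPM, 71.9 and 77.8 CPM, and 12.2 and 91.3 CPM, in the order of the pairs. The summed level of the members had its lowest group mean in control (1937 ± 43.2 CPM) and its highest in oxLDL + pNaKtide (2073 ± 104 CPM, SD, n = 5). In the latter group, replicate 3 was at 2255 CPM and the other libraries at 2001 to 2048 CPM. The mean of IS + pNaKtide was 2048 ± 75.7 CPM, so the highest rank rests on that replicate. As a share of the raw counts, without the TMM scaling, the order differed, with the lowest group mean in pNaKtide (0.188% ± 0.0084) and the highest in oxLDL (0.215% ± 0.0080).

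**Figure D1:**
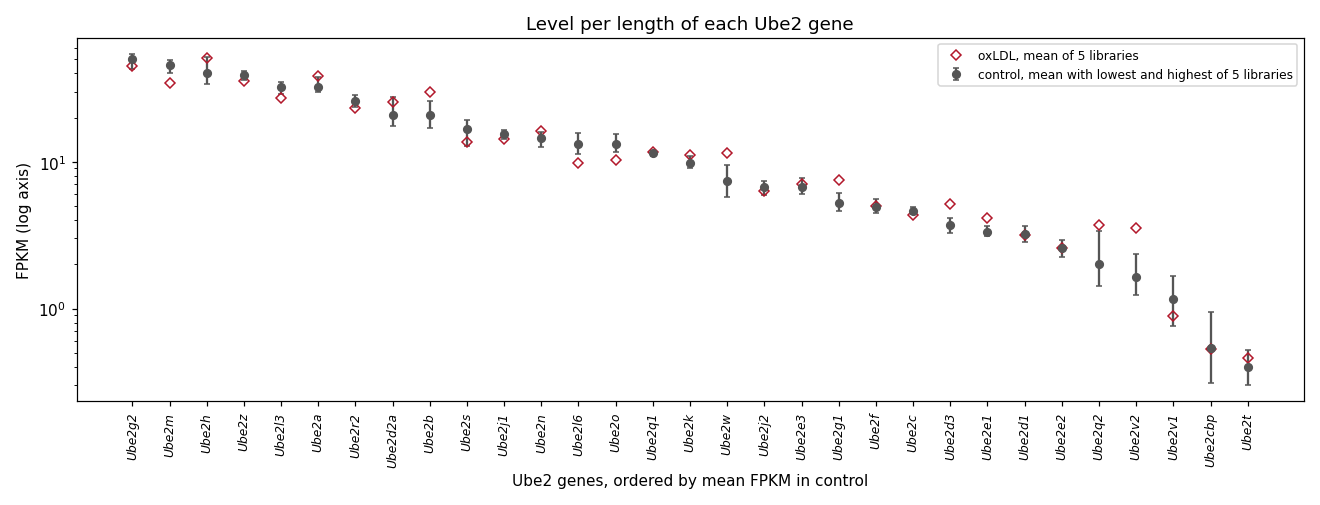
Mean FPKM of 31 of the 32 Ube2 genes (log axis), ordered by the control mean, with circles and bars for the mean and the lowest and highest of 5 control libraries and open diamonds for the oxLDL mean. Levels run from Ube2g2 at 50.0 FPKM to Ube2t at 0.398 FPKM in control.

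With oxLDL against control, 17 of the 32 members passed a BH-adjusted p-value of 0.1 in the edgeR quasi-likelihood test, 11 over-expressed and 6 under-expressed. Of all 20139 genes, 18.1% were over-expressed and 18.0% under-expressed by the same rule. The median log2 fold change was 0.027 over the members and 0.045 over all genes tested. The largest rises were those of Ube2v2, Ube2q2, Ube2w and Ube2g1, and, among the called members, the largest falls were those of Ube2l6, Ube2m, Ube2o and Ube2s. The 5 libraries of each group did not overlap for 7 members (Ube2v2, Ube2w, Ube2g1, Ube2b, Ube2d3, Ube2m and Ube2o), all of them called, against 8.34% of all genes. Scaling by library size alone gave 14 over- and 3 under-expressed members, and with that scaling the median over all genes was 0.17 in place of 0.045. The shares of all genes called under that scaling are not given, so the split cannot be set against them. Of the 8 adipocyte markers 1 rose and 2 fell in the same comparison, and of the 5 preadipocyte or fibroblast markers 0 rose and 2 fell. The summed adipocyte level was 13090 to 15970 CPM in control and 12800 to 16750 CPM with oxLDL, and the summed preadipocyte or fibroblast level 4509 to 5763 and 3672 to 4260 CPM. Their part in the result was not tested.

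**Figure D2:**
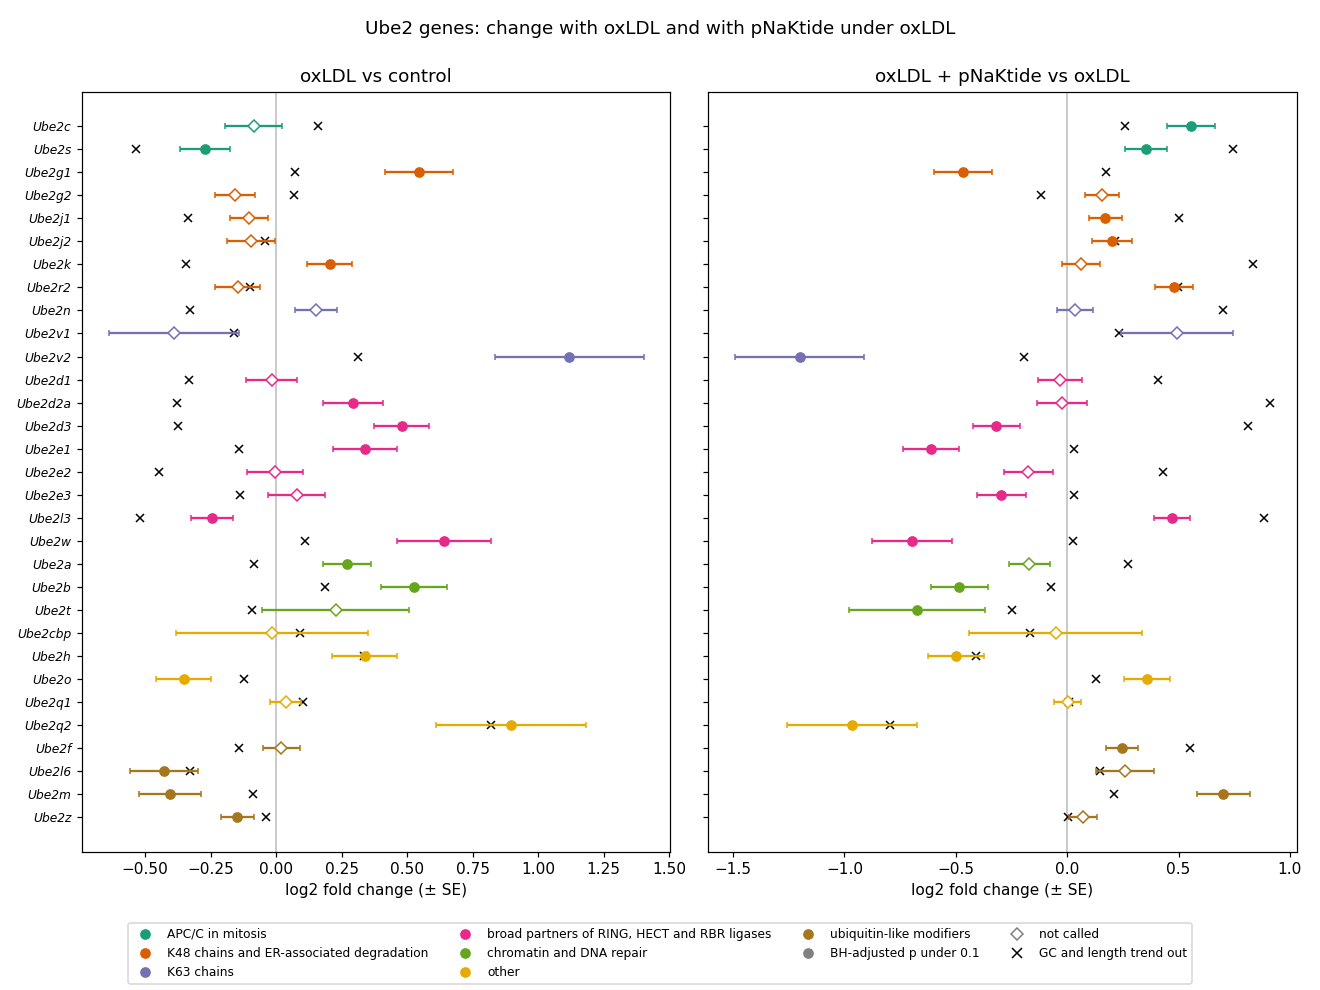
Log2 fold change (± SE, 5 libraries per group) of 31 of the 32 Ube2 genes with oxLDL against control (left) and with oxLDL + pNaKtide against oxLDL (right), coloured by functional class. Filled circles passed a BH-adjusted p-value of 0.1, open diamonds did not, and crosses show the value with the trend over GC content and length taken out. Ube2v2 lies at 1.12 on the left and -1.20 on the right, and on the left panel the crosses of Ube2v2, Ube2w and Ube2g1 lie nearer to 0 than the circles, those of Ube2q2 and Ube2h close to their circles, and those of Ube2d3, Ube2d2a and Ube2k on the other side of 0.

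Among the K63-chain enzymes, Ube2v2 (ENSMUSG00000022674, GRCm38 chr16:15552077-15595773) is the partner without an active cysteine that lets Ube2n build K63-linked chains. Its level was 16.8, 9.40, 14.8, 9.18 and 8.98 CPM in the control libraries 1 to 5 and 23.6, 37.4, 19.3, 16.8 and 31.1 CPM in the oxLDL libraries. The lowest oxLDL library lay just above the highest control library. The log2 fold change was 1.12 ± 0.28 (SE; BH-adjusted p = 0.00957, edgeR). The active partner Ube2n was not called (0.15 ± 0.081, BH-adjusted p = 0.163), nor was the other inactive partner, Ube2v1 (-0.39 ± 0.25, BH-adjusted p = 0.247). In the fit that takes out the trend of the counts over GC content and length, described further on, Ube2v2 was at 0.31 and not called, and Ube2n was called lower (-0.33, BH-adjusted p = 0.037).

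Among the 8 broad partners of RING, HECT and RBR ligases, 4 rose, 1 fell and 3 were not called, with a median log2 fold change of 0.19, where 18.1% of all genes rose and 18.0% fell. With this trend out, 0 of the 8 rose and 4 fell, with a median of -0.35, against 8.54% and 11.4% of all genes in that fit. Ube2w (ENSMUSG00000025939, chr1:16540790-16619489), which attaches ubiquitin to the amino terminus of proteins, had 47.2, 33.03, 44.02, 28.8 and 30.6 CPM in control and 53.98, 64.6, 56.2, 48.6 and 63 CPM with oxLDL. Every oxLDL library lay above every control library, and the log2 fold change was 0.64 ± 0.18 (BH-adjusted p = 0.0126). Ube2d3, a widely used partner of RING ligases, had the smallest adjusted p of the class (0.48 ± 0.11, BH-adjusted p = 0.00781), and Ube2e1 and Ube2d2a also rose (0.34 ± 0.12 and 0.29 ± 0.11). Ube2l3 (ENSMUSG00000038965, chr16:17152013-17202649), which serves HECT and RBR ligases, had 169.7, 197, 197, 206 and 185 CPM in control and 157, 159, 162, 172 and 156 CPM with oxLDL. Control replicate 1 lay among the oxLDL libraries and the other 4 control libraries above them, and the log2 fold change was -0.25 ± 0.080 (BH-adjusted p = 0.0235). Ube2d1, Ube2e2 and Ube2e3 had log2 fold changes of -0.018, -0.0044 and 0.078 and were not called. Without oxLDL replicate 5, Ube2e1 was no longer called (0.26, BH-adjusted p = 0.141, edgeR), and Ube2d2a lost its call without any 1 of 5 libraries (control replicates 2, 4 and 5, oxLDL replicates 2 and 5), at values of 0.24 to 0.27.

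Among the 6 enzymes of K48 chains and of degradation from the endoplasmic reticulum, 2 rose and 0 fell, against 18.1% and 18.0% of all genes, whereas 0 rose and 2 fell with the trend out, against 8.54% and 11.4%. Ube2g1 (ENSMUSG00000020794, chr11:72607283-72686481), whose window is printed above, builds K48 chains. It had 28.4, 22.4, 26.6, 21.4 and 21.8 CPM in control and 34.4, 41.04, 30.8, 31.5 and 38.04 CPM with oxLDL, with no overlap, and a log2 fold change of 0.54 ± 0.13 (BH-adjusted p = 0.00811, edgeR). Ube2k, another builder of K48 chains, rose by less (0.20 ± 0.086, BH-adjusted p = 0.073) and lost its call without any 1 of 7 libraries (control replicates 2, 4 and 5, oxLDL replicates 1, 2, 3 and 5), at values of 0.18 to 0.21. The enzymes of the endoplasmic reticulum, Ube2g2, Ube2j1 and Ube2j2, had log2 fold changes of -0.16, -0.10 and -0.10, and Ube2r2, a partner of cullin ligases, -0.15, none of them called.

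Of the 5 enzymes that carry ubiquitin-like modifiers or are loaded by a separate E1, 3 fell and 0 rose, against 18.0% and 18.1% of all genes. With the trend out only 1 of the 5 was called lower (11.4% of all genes), Ube2l6, and Ube2m was at -0.088 and not called. Ube2m (ENSMUSG00000005575, chr7:13035120-13038275), an E2 for NEDD8, had 94.9, 117, 105, 118 and 108 CPM in control and 83.3, 72.6, 90.8, 92.6 and 71.3 CPM with oxLDL. The groups did not overlap, and the log2 fold change was -0.41 ± 0.12 (BH-adjusted p = 0.014). Ube2l6 (ENSMUSG00000027078, chr2:84798828-84810335), the E2 for the interferon-induced modifier ISG15, had 22.6, 27.2, 25.2, 31.9 and 27.04 CPM in control and 22.2, 16.7, 20.9, 24.2 and 15.6 CPM with oxLDL. The groups overlapped in 1 library each way, and the log2 fold change was -0.43 ± 0.13 (BH-adjusted p = 0.0166, edgeR). Ube2z, which is loaded by Uba6, fell by 0.15 on the log2 scale (BH-adjusted p = 0.0719) and lost its call without any 1 of 6 libraries (control replicates 2, 3 and 5, oxLDL replicates 1, 2 and 5), at values of -0.15 to -0.13. Ube2f, the other E2 for NEDD8, had a log2 fold change of 0.019 and was not called.

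The classes of chromatin and of the anaphase promoting complex hold 3 and 2 members, and are read against the same 18.1% and 18.0% of all genes. Of the 3 enzymes of chromatin and DNA repair, Ube2b and Ube2a, the pair that adds ubiquitin to histone H2B, both rose (0.53 ± 0.13, BH-adjusted p = 0.00811, and 0.27 ± 0.092, BH-adjusted p = 0.0298), and Ube2t was not called (0.23 ± 0.28). Taking the trend out left Ube2b called (0.18), whereas Ube2a changed sign and was not called (-0.084, BH-adjusted p = 0.462), and the median of the 3 went from 0.27 to -0.084. Of the 2 enzymes of the anaphase promoting complex, Ube2s (ENSMUSG00000060860, chr7:4794546-4812590), which extends chains on its substrates, had 66.4, 85.1, 84.1, 94.8 and 101 CPM in control and 69.9, 70.04, 73.2, 73.7 and 70.5 CPM with oxLDL. Control replicate 1 lay below all oxLDL libraries and the other 4 above them, and the log2 fold change was -0.27 ± 0.094 (BH-adjusted p = 0.0321). Without control replicate 5 the call was lost (-0.21, BH-adjusted p = 0.123). Ube2c, which starts those chains, was not called (-0.086 ± 0.11).

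Of the 5 remaining members, 2 rose and 1 fell, against 18.1% and 18.0% of all genes. Both rises stayed called with the trend out, whereas the fall, that of Ube2o, did not (-0.12). Ube2q2 (ENSMUSG00000032307, chr9:55148854-55207529), an E2 with a long amino-terminal extension, had 14.6, 7.03, 9.55, 6.23 and 6.24 CPM in control and 15.03, 21.5, 13.6, 12.01 and 19.2 CPM with oxLDL. Control replicate 1 lay within the oxLDL range, and the log2 fold change was 0.89 ± 0.29 (BH-adjusted p = 0.0231). Ube2h (ENSMUSG00000039159, chr6:30211289-30304539) had 248, 174, 198, 164 and 189 CPM in control and 244, 267, 226, 237 and 255 CPM with oxLDL. Here too only control replicate 1 reached the oxLDL range, and the log2 fold change was 0.34 ± 0.12 (BH-adjusted p = 0.0408, edgeR). The call of Ube2h was lost without control replicate 2 (0.30), control replicate 4 (0.28) or oxLDL replicate 2 (0.31). Ube2o (ENSMUSG00000020802, chr11:116537740-116581447), a large enzyme that acts as E2 and E3 in one chain, had 62.02, 74.04, 64.7, 82.01 and 71.3 CPM in control and 56.9, 50.7, 55.8, 61.4 and 52.3 CPM with oxLDL. The lowest control library, replicate 1, lay just above the highest oxLDL library, replicate 4, and the log2 fold change was -0.35 ± 0.10 (BH-adjusted p = 0.0155). Ube2q1 and Ube2cbp had log2 fold changes of 0.036 and -0.016 and were not called.

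With pNaKtide added to oxLDL, 20 of the 32 members differed from oxLDL alone, 10 over-expressed and 10 under-expressed. The shares over all genes were 22.1% and 26.2%. The median log2 fold change was 0.019 over the members and -0.086 over all genes. The groups did not overlap for 10 called members, 6 over-expressed (Ube2c, Ube2f, Ube2l3, Ube2m, Ube2r2 and Ube2s) and 4 under-expressed (Ube2e1, Ube2g1, Ube2q2 and Ube2w), against 28.4% of all genes. This comparison and that of oxLDL with control share the 5 oxLDL libraries, so the values of the same gene in both are set side by side here and are not independent. Scaling by library size alone gave 4 over- and 15 under-expressed members, with the median of all genes at -0.30. For that scaling the shares of all genes called are not given, and the split cannot be set against them. Without oxLDL + pNaKtide replicate 4 and pNaKtide replicate 3, 19 members were called, 11 over- and 8 under-expressed, against 20.1% and 21.8% of all genes. Of the adipocyte markers 3 rose and 1 fell, and of the preadipocyte or fibroblast markers 1 rose and 1 fell, with summed levels of 15160 to 16660 and 3704 to 5341 CPM in oxLDL + pNaKtide. Their part in the result was not tested.

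The rises with pNaKtide were led by Ube2m, which had 125, 118, 125, 159 and 140.1 CPM in the oxLDL + pNaKtide libraries, all above the oxLDL libraries given before. The log2 fold change against oxLDL was 0.70 ± 0.12 (BH-adjusted p = 4.02e-05, edgeR), against -0.41 with oxLDL. Ube2c (ENSMUSG00000001403, chr2:164769898-164778822) had 10.9, 12.5, 10.99, 11.5 and 11.5 CPM with oxLDL and 15.9, 16.1, 17.5, 18.5 and 16.7 CPM with oxLDL + pNaKtide. Every library with pNaKtide lay above those with oxLDL alone and above the control libraries (11.5, 12.4, 12.03, 12.1 and 12.96 CPM), and the log2 fold change against oxLDL was 0.56 ± 0.11 (BH-adjusted p = 0.000149). Ube2r2 (ENSMUSG00000036241, chr4:41135743-41193380) had 105, 120.1, 108, 118 and 101 CPM in control, 104, 95.2, 105, 104 and 90.9 CPM with oxLDL and 142, 138, 144, 136 and 135 CPM with oxLDL + pNaKtide. The last group lay above both others in every library, with a log2 fold change against oxLDL of 0.48 ± 0.085 (BH-adjusted p = 5.93e-05).

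Ube2l3 had 221, 216, 212, 246 and 221 CPM with oxLDL + pNaKtide, again above every oxLDL and control library (0.47 ± 0.080 against oxLDL, BH-adjusted p = 4.52e-05, edgeR). Ube2s had 80.01, 78.6, 100.5, 109.6 and 88.5 CPM, above every oxLDL library, and Ube2o had 67.97, 66.05, 59.9, 80.4 and 81.1 CPM, of which replicate 3 lay below the highest oxLDL library. Their log2 fold changes against oxLDL were 0.35 ± 0.095 and 0.36 ± 0.10. Ube2f, Ube2j2 and Ube2j1 rose by 0.24, 0.20 and 0.17. The call of Ube2j2 was lost without any 1 of 4 libraries (oxLDL replicates 2 and 5, oxLDL + pNaKtide replicates 2 and 3), at 0.13 to 0.20, and that of Ube2j1 without oxLDL replicate 2 (0.16) or oxLDL + pNaKtide replicate 5 (0.15). Ube2l6, lower with oxLDL, had 22, 23.1, 22.6, 27.6 and 23.8 CPM and was not called against oxLDL (0.26 ± 0.13, BH-adjusted p = 0.114).

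The falls with pNaKtide were led by Ube2v2, which had 11.2, 11.6, 18.03, 6.95 and 7.25 CPM with oxLDL + pNaKtide. Replicate 3 reached the lower end of the oxLDL libraries, and the log2 fold change against oxLDL was -1.20 ± 0.29 (BH-adjusted p = 0.0014). Ube2q2 had 9.38, 9.50, 11.6, 3.31 and 6.95 CPM and Ube2w had 37.4, 41.8, 42.8, 20.5 and 33.02 CPM, each below every oxLDL library, with replicate 4 the lowest in both. Their log2 fold changes were -0.97 ± 0.29 and -0.70 ± 0.18. Ube2e1 (ENSMUSG00000021774, chr14:18282722-18331859), a partner of RING ligases, had 14.6, 14.9, 16.5, 14.5 and 14.1 CPM in control, 19.5, 18.99, 18.03, 14.8 and 22.98 CPM with oxLDL and 12.3, 11.8, 14.3, 11.4 and 11.8 CPM with oxLDL + pNaKtide. The groups with and without pNaKtide under oxLDL did not overlap, with a log2 fold change of -0.61 ± 0.12 (BH-adjusted p = 0.000256, edgeR).

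Ube2g1 had 27.9, 28.8, 29.1, 16.4 and 24.2 CPM and Ube2h had 168, 182, 237, 137 and 144 CPM with oxLDL + pNaKtide. Ube2g1 lay below every oxLDL library, whereas replicate 3 of Ube2h reached the oxLDL range, and the log2 fold changes were -0.47 ± 0.13 and -0.50 ± 0.12. Ube2b, Ube2d3, Ube2e3 and Ube2t fell as well, by log2 fold changes of -0.48, -0.32, -0.30 and -0.68. The call of Ube2e3 was lost without oxLDL + pNaKtide replicate 4 (-0.21). That of Ube2t, which had 1.31 CPM in oxLDL + pNaKtide and 2.27 CPM in oxLDL, was lost without any 1 of 5 libraries (oxLDL replicates 1 and 5, oxLDL + pNaKtide replicates 1, 4 and 5), at -0.65 to -0.46. The members not called were Ube2a, Ube2d1, Ube2d2a, Ube2e2, Ube2g2, Ube2k, Ube2l6, Ube2n, Ube2q1, Ube2v1, Ube2z and Ube2cbp.

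**Figure D3:**
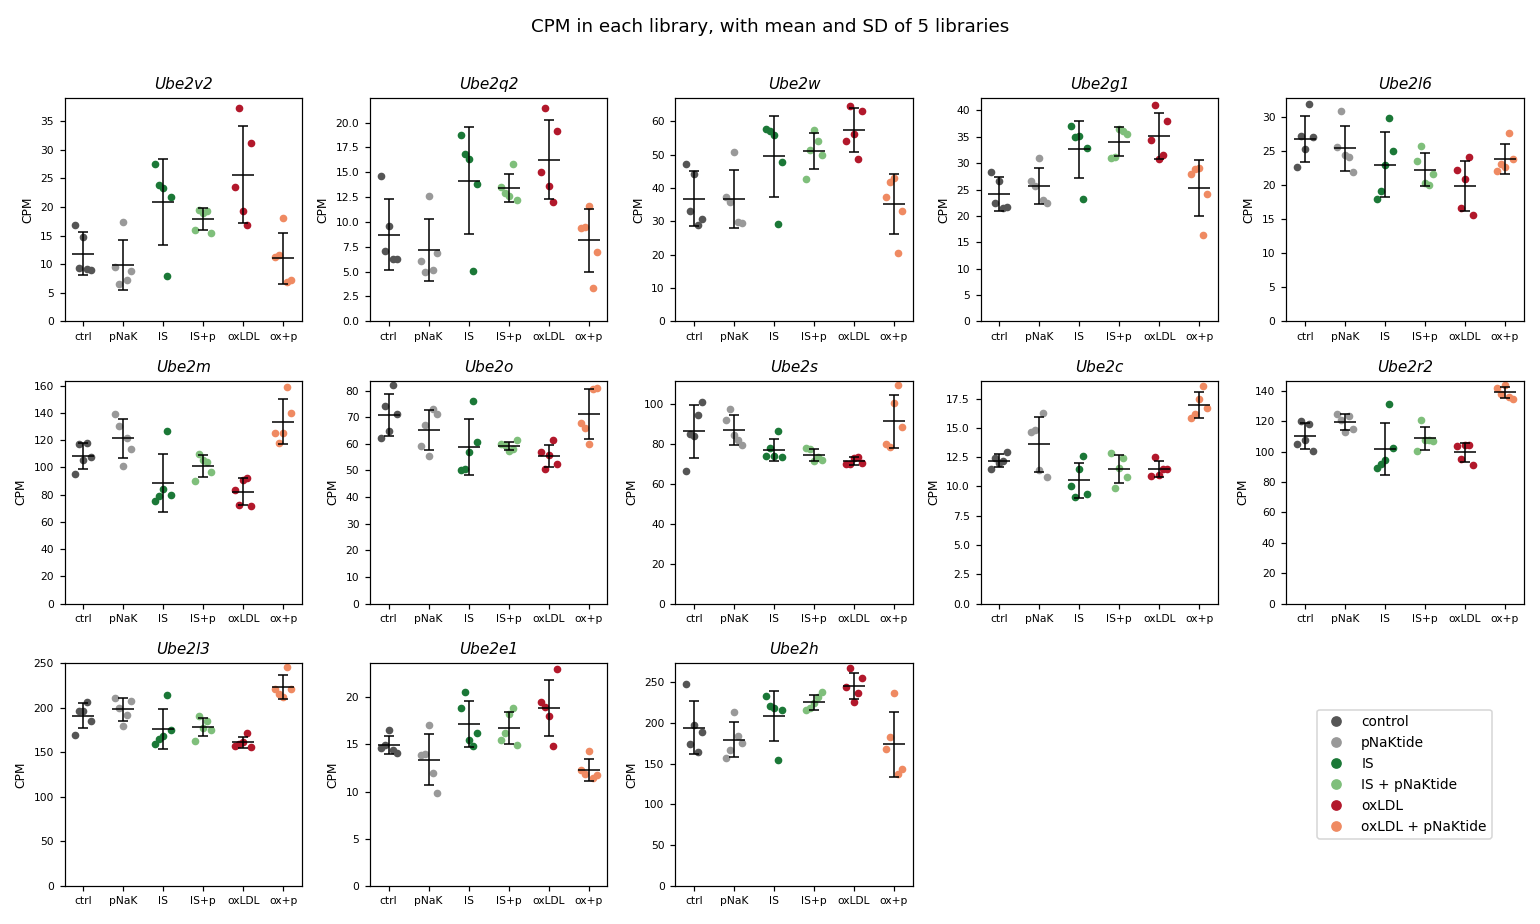
CPM of 13 Ube2 genes in each of the 30 libraries (points, replicates 1 to 5 from left to right within a group), with the mean and SD of each group in black and every axis starting at 0. The oxLDL libraries of Ube2w, Ube2g1 and Ube2v2 lie above the control libraries, those of Ube2m and Ube2o below, and the oxLDL + pNaKtide libraries of Ube2c, Ube2r2 and Ube2l3 lie above both.

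Set against control, the cells with oxLDL + pNaKtide showed 5 over-expressed members and 0 under-expressed ones in the edgeR test, where 2.04% and 3.17% of all genes were called. Among them were Ube2r2 (0.33 ± 0.084, BH-adjusted p = 0.025), Ube2c (0.47 ± 0.11, BH-adjusted p = 0.0136), Ube2f (0.26 ± 0.072) and Ube2k (0.27 ± 0.086). At an unadjusted p-value of 0.05, 10 members passed in the same test, and the share of all genes at that threshold is not given. The call of Ube2f was lost without control replicate 5 (0.24) and that of Ube2k without any 1 of 5 libraries (control replicates 2 to 5, oxLDL + pNaKtide replicate 3; 0.17 to 0.28). Fitted on the groups compared alone, 0 of the 5 were called. The 4 members with the largest changes with oxLDL had log2 fold changes against control of -0.083 (Ube2v2), -0.072 (Ube2q2), -0.057 (Ube2w) and 0.076 (Ube2g1), and the 2 with the largest called falls -0.17 (Ube2l6) and 0.29 (Ube2m), none of them called.

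The response to pNaKtide under oxLDL was tested against its response in cells without an oxidant, as a difference of 2 changes. For 11 members the difference passed the test, 6 with a positive and 5 with a negative difference, against 12.8% and 11.8% of all genes. The smallest BH-adjusted p-values were those of Ube2l3 (0.42 ± 0.11, BH-adjusted p = 0.0257), Ube2m (0.54 ± 0.17), Ube2o (0.48 ± 0.15) and Ube2r2 (0.37 ± 0.12), on the log2 scale (edgeR). In cells without an oxidant, Ube2l3 was 211, 200.1, 179.8, 192 and 208 CPM with pNaKtide, of which replicates 1 and 5 lay above the highest control library and the other 3 within the control range. Against the response under IS, 13 members passed, 6 positive and 7 negative, where 13.9% and 15.4% of all genes did. The smallest p-values there were those of Ube2l3 (0.45 ± 0.11, BH-adjusted p = 0.0112), Ube2h (-0.61 ± 0.17), Ube2e1 (-0.57 ± 0.17) and Ube2r2 (0.39 ± 0.12). The 4 named in each of these differences stayed called without any 1 library. Without pNaKtide replicate 3 and oxLDL + pNaKtide replicate 4 together, however, 0 members passed in the difference from cells without an oxidant by edgeR, 5 had an unadjusted p-value under 0.05, and Ube2l3 was at 0.35 (BH-adjusted p = 0.14). Of all genes, 0.00999% were called positive and 0.0150% negative in that fit. Without either one alone, 4 passed. Without these 2 and control replicate 1 and IS replicate 4, 9 passed (15.1% and 14.9% of all genes), among them Ube2l3, Ube2m, Ube2o and Ube2r2. In the difference from the response under IS, 10 passed without the pair (11.0% and 9.91% of all genes) and 7 without the 4 (9.91% and 10.2%), the 4 named members among them in both cases. With the trend over GC content and length out (described further on), Ube2l3, Ube2r2 and Ube2s stayed called in both differences and Ube2h in the second.

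With IS against control, 4 members passed the test, against 4.45% of all genes over-expressed and 3.49% under-expressed. Ube2v2 (0.82 ± 0.28, BH-adjusted p = 0.0956), Ube2g1 (0.44 ± 0.13, BH-adjusted p = 0.0729) and Ube2b (0.36 ± 0.13, BH-adjusted p = 0.0955) rose and Ube2v1, at 1.79 CPM with IS and 3.19 CPM in control, fell (-0.84 ± 0.25, BH-adjusted p = 0.0738, edgeR). For each of the 4 the groups overlapped, where 1.81% of all genes did not. Ube2v2 had 27.4, 23.9, 23.4, 7.99 and 21.7 CPM and Ube2g1 37, 34.9, 35.1, 23.2 and 32.9 CPM in the IS libraries. Replicate 4 lay below every control library for Ube2v2 and among the control libraries for Ube2g1, and in both genes the other 4 lay above every control library. The calls of Ube2v2, Ube2g1 and Ube2b were each lost without any 1 of 8 libraries (all but control replicate 1 and IS replicate 4), at 0.71 to 0.91, 0.39 to 0.47 and 0.30 to 0.37. That of Ube2v1 was lost without any 1 of 7 (control replicates 2, 4 and 5, IS replicates 1, 2, 3 and 5), at -1.07 to -0.66. The remaining members lay between -0.29 (Ube2m) and 0.70 (Ube2q2). With the trend over GC content and length out, 0 of the 4 stayed called, and 1 other member, Ube2j1, was under-expressed (-0.28, BH-adjusted p = 0.0979), where 4.03% of all genes were called. Of the adipocyte markers 1 rose and 3 fell with IS, and of the preadipocyte or fibroblast markers 0 rose and 2 fell, with summed levels of 11250 to 13420 and 2793 to 4602 CPM in the IS libraries. Their part in the result was not tested.

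Leaving out control replicate 1 and IS replicate 4 brought the count with IS to 19 members, 9 over- and 10 under-expressed, where 23.9% and 21.8% of all genes were. In the difference between GC-rich and GC-poor genes, control replicate 1 (-0.32) lay within the range of the other IS libraries (-0.57 to -0.31). IS replicate 4 (0.44) lay within that of the other control libraries (0.043 to 0.54). Leaving them out thus sets the groups further apart by choice, and the higher count is no independent result. Leaving out pNaKtide replicate 3 and oxLDL + pNaKtide replicate 4, which belong to neither group compared but enter the fit of all libraries, gave 9 members against 8.97% and 6.28% of all genes, and leaving out all 4 gave 21 against 26.0% and 21.8%. In IS replicate 4, Ube2m was 126 CPM against 75.2 to 84.1 CPM in the other IS libraries, Ube2l3 215 CPM against 159 to 175 CPM, Ube2h 154 CPM against 216 to 233 CPM, and Ube2q2 5.07 CPM against 13.8 to 18.8 CPM. With oxLDL the count without the same control library and IS library was 20, against 17 with them (25.3% and 22.7% of all genes), and with oxLDL + pNaKtide against oxLDL it was 22, against 20 (23.4% and 27.7%). Of these 3 counts, that for IS moved most with these libraries.

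Between oxLDL and IS, 0 members and 0.0149% of all genes were called by edgeR, 0 members by DESeq2 and by limma, and 0 passed at an unadjusted p-value of 0.05. Log2 differences (oxLDL minus IS) ran from -0.20 to 0.45. With pNaKtide in cells without an oxidant, 0 members were called against 0.00497% of all genes, 0 by DESeq2 and limma, and 1 member, Ube2e3, had an unadjusted p-value under 0.05 (-0.25 ± 0.11). With pNaKtide added to IS, 0 members and 0% of all genes were called by edgeR, 0 members by DESeq2 and limma, and 0 passed at an unadjusted p-value of 0.05, with log2 fold changes of -0.24 to 0.35. With IS + pNaKtide against control, 0 members were called by edgeR, where 0.139% of all genes were over-expressed and 0.218% under-expressed, but 6 were called by DESeq2, 1 by limma and 12 without control replicate 1 and IS replicate 4 (where 17.2% and 15.5% of all genes were), and 11 passed at an unadjusted p-value of 0.05. The smallest BH-adjusted p-value there was that of Ube2g1 (0.50 ± 0.13, BH-adjusted p = 0.117), with 31.01, 31.2, 36.5, 36.2 and 35.6 CPM, above every control library. Shares of all genes are not given for the DESeq2, limma and unadjusted counts of this comparison, so those counts describe the members alone.

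The change of the members went with the GC content of their longest annotated transcript. The 11 members over-expressed with oxLDL had a median GC content of 40.9% (35.1% to 49.6%), the 6 under-expressed 51.1% (44.9% to 63.4%), and the 15 not called 50.1%. Across the 32 members, Spearman's rho between GC content and the log2 fold change was -0.71 with oxLDL, -0.77 with IS and 0.66 with oxLDL + pNaKtide against oxLDL, and across all 20107 genes with a GC value it was -0.52, -0.46 and 0.51. Genes are not independent replicates, and these values describe the fits, which share libraries. The difference between GC-rich and GC-poor genes (those above 54.2% and below 45.0%) in a library, relative to the mean of all libraries, had a median of 0.42 in control, 0.38 with pNaKtide, -0.41 with IS, -0.20 with IS + pNaKtide, -0.53 with oxLDL and 0.27 with oxLDL + pNaKtide, on the log2 scale. It was -0.32 in the lowest control library and 0.44 in the highest IS library. It moved with the groups, and whether it arose in the cells or in the libraries was not tested.

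**Figure D4:**
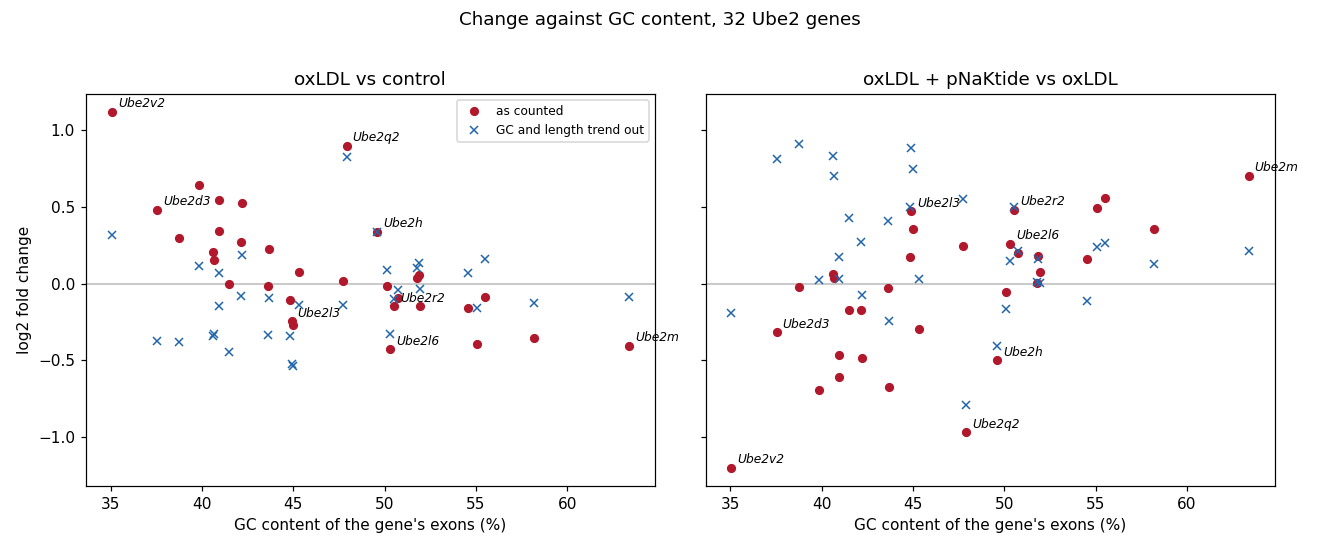
Log2 fold change of each of the 32 Ube2 genes against the GC content (%) of its longest annotated transcript, with oxLDL against control (left) and oxLDL + pNaKtide against oxLDL (right). The axis names this value as that of the gene's exons. Circles show the fit of the counts and crosses the fit with the trend over GC content and length taken out. The circles slope down on the left (Spearman's rho -0.71) and up on the right (0.66), and the crosses slope slightly the other way (0.27 and -0.27).

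The trend over GC content and exon length that each library showed was also taken out before the test. For oxLDL against control 12 members were then called, 3 over-expressed and 9 under-expressed, where 8.54% and 11.4% of all genes were. Of the 11 rises, those of Ube2q2 (0.82, BH-adjusted p = 0.0505), Ube2h (0.33, BH-adjusted p = 0.0473) and Ube2b (0.18, BH-adjusted p = 0.0722) stayed called. Ube2v2, Ube2w and Ube2g1 had values of 0.31, 0.11 and 0.071, not called. The value changed sign for Ube2d3 (-0.37), Ube2e1 (-0.14) and Ube2a (-0.084), not called, and for Ube2d2a (-0.38) and Ube2k (-0.34), which were called as lower. The length in this fit was that of all annotated exons together, which need not be that of the transcript present. It was 24499 bases for Ube2d3, 11565 for Ube2d2a and 7892 for Ube2k, against 4457 for Ube2e1 and 2272 for Ube2a. Of the 6 falls, those of Ube2l6 (-0.33, BH-adjusted p = 0.0318), Ube2s (-0.54) and Ube2l3 (-0.52) stayed called, and those of Ube2m (-0.088), Ube2o (-0.12) and Ube2z (-0.039) did not. Ube2d1, Ube2e2, Ube2j1 and Ube2n were called lower only in this fit.

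For oxLDL + pNaKtide against oxLDL, 19 members were called with the trend out, 17 over-expressed and 2 under-expressed, where 18.9% and 18.0% of all genes were. Of the 10 rises 9 stayed called, among them Ube2r2 (0.50), Ube2l3 (0.88), Ube2m (0.21) and Ube2c (0.26), and Ube2o did not (0.13). Of the 10 falls, those of Ube2q2 (-0.79) and Ube2h (-0.41) stayed called. Ube2v2 had -0.19 and Ube2w 0.024, not called, and Ube2d3 (0.81) and Ube2g1 (0.17) were called in the opposite direction. Against control, all 5 members over-expressed with oxLDL + pNaKtide stayed called, where 5.17% of all genes were over-expressed and 4.30% under-expressed, with Ube2r2 at 0.39 and Ube2c at 0.42.

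The other steps of the pathway were read from lists of genes, against the 18.1% of all genes that rose and the 18.0% that fell with oxLDL. With oxLDL, 4 of 10 E1 enzymes rose and 3 fell. The smallest adjusted p-values were those of Uba3, a subunit of the E1 for NEDD8 (0.77 ± 0.19, BH-adjusted p = 0.00866), and Uba1, the main E1 for ubiquitin (-0.50 ± 0.12, BH-adjusted p = 0.00892, edgeR). Uba3 was 56.3 ± 12.3 CPM in control and 95.8 ± 13.9 CPM with oxLDL, and Uba1 823 ± 109 and 582 ± 75.1 CPM (SD, n = 5). Both stayed called with the trend out (0.28 and -0.40), but over the list the counts went to 1 rise and 2 falls, where 8.54% of all genes rose and 11.4% fell in that fit. Among 9 E2 and E2-like genes with other symbols, 2 rose and 3 fell, led by Atg3, the E2 of autophagy (0.49 ± 0.12), and Cdc34b, a copy of the Ube2r2 relative Cdc34 (-0.61 ± 0.17). Cdc34 itself fell too (-0.51 ± 0.14). With the trend out, 0 of this list rose and 2 fell, against the same 8.54% and 11.4%, and Atg3 (0.0052), Cdc34b (-0.22) and Cdc34 (-0.13) were not called. Of 19 ubiquitin and ubiquitin-like precursors, 4 rose and 8 fell. Map1lc3a (-0.61 ± 0.16) is named among the falls by its adjusted p-value, and the lowest log2 fold change of the list was -0.65. With the trend out, 0 of these 19 rose and 6 fell, against 8.54% and 11.4%, and 5 of the 8 falls stayed called, among them that of Map1lc3a (-0.19, BH-adjusted p = 0.0613). Nedd8, the load of Ube2m and Ube2f, fell (-0.31 ± 0.091, BH-adjusted p = 0.0149), and with the trend out was at 0.0053.

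Of 51 E3 ligases and cofactors that act with a given E2, 18 rose and 11 fell with oxLDL, or 35.3% and 21.6%, against 18.1% and 18.0% of all genes. Herc6, a ligase for ISG15 in the mouse and so a partner of Ube2l6, rose from 2.21 ± 0.79 to 4.41 ± 0.42 CPM (SD, n = 5), or by 0.99 ± 0.23 on the log2 scale (SE; BH-adjusted p = 0.00796, edgeR), whereas Ube2l6 itself fell. With the trend out, Herc6 was not called (0.40). Isg15 was 3.86 ± 0.50 CPM in control and 4.88 ± 1.52 CPM with oxLDL and was not called (0.33 ± 0.30). Fzr1, an activator of the anaphase promoting complex that Ube2c and Ube2s serve, fell (-0.42 ± 0.093, BH-adjusted p = 0.00781), as did Rbck1, a subunit of the linear chain complex that works with Ube2l3 (-0.53 ± 0.12, BH-adjusted p = 0.00781). With oxLDL + pNaKtide against oxLDL, 4 E1 enzymes rose and 5 fell, 10 precursors rose and 4 fell, and 11 E3 ligases and cofactors rose and 26 fell (21.6% and 51.0%), against 22.1% and 26.2% of all genes. With the trend out, 4 E1 enzymes rose and 1 fell in that comparison, and 1 of the 5 falls stayed called, while 10 precursors rose and 2 fell, and 0 of the 4 falls stayed called. In the same fit 14 of the E3 list rose and 12 fell, against 18.9% and 18.0% of all genes, and 2 rose and 10 fell with oxLDL, where 8.54% and 11.4% of all genes did.

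Some members share sequence or position with other genes, and their counts are less certain. The pseudogenes Ube2n-ps1, Ube2d-ps and Ube2nl had 7039, 4829 and 874 counts over all libraries, so reads of Ube2n and the Ube2d genes may be split between copies. None of the 3 was called with oxLDL (log2 fold changes of -0.076, -0.032 and 0.087). With oxLDL + pNaKtide against oxLDL, Ube2n-ps1 and Ube2d-ps were over-expressed (0.18 and 0.21, BH-adjusted p = 0.0932 and 0.0977, edgeR). Ube2s overlaps Rpl28 on the other strand, which had 133161 counts against 27783 for Ube2s, and Ube2a overlaps C330007P06Rik, which had 23743 counts against 28188. Ube2e1, Ube2l3 and Ube2v1 overlap Nkiras1, Ydjc and Gm11476 on the other strand, with 2547, 2019 and 438 counts, and Ube2r2 overlaps the pseudogene Gm12403 on its own strand, with 3323. Ube2v1 and Ube2g2 also overlap protein-coding genes on their own strand, Gm20431 and Gm49325, with 13 and 19 counts. The low level of Ube2v1 and its fall with IS are read with this limit. Whether the counting used strand, and how it treated reads shared by overlapping genes, is not given in the sources used here. Ube2cbp, Ube2t and Ube2v1 had as few as 1, 1 and 16 counts in a library, and small differences in them were not detectable at this depth.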

How the data were processed

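RNA was sequenced from 30 libraries of 3T3-L1 cells, 5 in each of 6 groups. The labels name a TruSeq stranded mRNA kit, and their extraction text speaks of adipose tissue although the source is given as 3T3 cells. The submitters' processing notes list Trimmomatic 0.38, HISAT2 2.1.0, DESeq2 1.20.0 and GRCm38, and reads were counted per gene. No source used here gives the annotation release, or whether counting took strand into account. The authors deposited raw counts per gene, FPKM values and DESeq2-normalized values. The deposited raw counts were used for all tests and the deposited FPKM for levels per length, and the normalized values were not used here.

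The test, run on genes whose counts summed to over 14, was that of edgeR 4.0.16 (TMM, robust quasi-likelihood, two-sided, 6 group coefficients in one fit of all libraries), with Benjamini-Hochberg adjustment over all 20139 genes and a threshold of 0.1. CPM used TMM-scaled library sizes. The biological coefficient of variation was 14.0%. Totals of 6945498 to 15159877 counts per library set the precision, and floors cover counting error only. Alternatives were DESeq2 1.42.0, limma 3.58.1 on log2(FPKM + 1), other scalings and filters, a replicate block, leaving out libraries, and offsets from each library's trend (mgcv 1.9.3) over GC content and exon length. The scripts were tested on simulated data with known changes.

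Members and gene lists were chosen with earlier results of these data known. Values in every library are given for the 4 called members with the largest change in each direction in oxLDL against control and oxLDL + pNaKtide against oxLDL (mean log2 CPM of at least 1), and for up to 4 by adjusted p-value in a difference of changes, 13 in all. Of the tested members, 1 is counted but not reported by name, nor is 1 gene of the pathway lists. For other members the smallest adjusted p-value of a class is named, and for pathway lists the smallest in each direction.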

Additional observations from a re-analysis of the deposited data

Results flagged for a closer look

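In 6 of 78 groups of 5 libraries searched over 13 Ube2 genes, 1 library stood apart by Dixon's test at 95%, which chance alone does in about 1 of 20 groups. Ube2h was 154 CPM in IS replicate 4, against 216 to 233 CPM in the other 4. Ube2l3 was 215 CPM in IS replicate 4, against 159 to 175 CPM in the other 4. Ube2l3 was 246 CPM in oxLDL + pNaKtide replicate 4, against 212 to 221 CPM in the other 4. Ube2m was 126 CPM in IS replicate 4, against 75.2 to 84.1 CPM in the other 4. Ube2q2 was 12.6 CPM in pNaKtide replicate 3, against 4.96 to 6.88 CPM in the other 4. Ube2v2 was 17.4 CPM in pNaKtide replicate 3, against 6.45 to 9.48 CPM in the other 4.

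The change with pNaKtide under oxLDL differed from that without an oxidant for 11 members, each given as the log2 difference and its BH-adjusted p-value from the edgeR contrast of both changes. The difference was negative for Ube2w (-0.69, 0.0635), Ube2g1 (-0.56, 0.044), Ube2e1 (-0.46, 0.0737), Ube2b (-0.43, 0.0931) and Ube2d3 (-0.37, 0.0848). It was positive for Ube2s (0.34, 0.0769), Ube2r2 (0.37, 0.0413), Ube2c (0.40, 0.0691), Ube2l3 (0.42, 0.0257), Ube2o (0.48, 0.0355) and Ube2m (0.54, 0.0336). With the trend over GC content and length out, Ube2l3, Ube2r2 and Ube2s stayed called. Without pNaKtide replicate 3 and oxLDL + pNaKtide replicate 4 together, 0 of the 11 were called by edgeR (5 members at an unadjusted p-value under 0.05). The call was lost without at least 1 library for Ube2b (any 1 of 14 libraries), Ube2c (any 1 of 7 libraries), Ube2d3 (any 1 of 11 libraries), Ube2e1 (any 1 of 9 libraries), Ube2g1 (any 1 of 2 libraries), Ube2s (any 1 of 11 libraries) and Ube2w (any 1 of 8 libraries).

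The change with pNaKtide under oxLDL differed from that under IS for 13 members, each given as the log2 difference and its BH-adjusted p-value from the edgeR contrast of both changes. The difference was negative for Ube2v2 (-0.96, 0.0826), Ube2w (-0.74, 0.0379), Ube2h (-0.61, 0.0183), Ube2e1 (-0.57, 0.0228), Ube2g1 (-0.53, 0.039), Ube2b (-0.52, 0.0367) and Ube2e3 (-0.40, 0.0622). It was positive for Ube2o (0.35, 0.0902), Ube2r2 (0.39, 0.0241), Ube2s (0.40, 0.0328), Ube2c (0.42, 0.047), Ube2l3 (0.45, 0.0112) and Ube2m (0.51, 0.0301). With the trend over GC content and length out, Ube2h, Ube2l3, Ube2r2 and Ube2s stayed called. The call was lost without at least 1 library for Ube2b (any 1 of 2 libraries), Ube2c (1 library), Ube2e3 (any 1 of 5 libraries), Ube2g1 (any 1 of 2 libraries), Ube2o (any 1 of 13 libraries) and Ube2v2 (any 1 of 10 libraries).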

How the results depend on the processing

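Counts of members called within 1.5 times of the main one were obtained for oxLDL against control and for oxLDL + pNaKtide against oxLDL under all 13 alternatives, with ranges of 13 to 19 and of 18 to 23 when 1 library was left out. Similar totals did not mean the same members or directions. With the trend over GC content and length out, 6 of the 17 calls and 11 of the 20 calls were kept in the same direction. The splits were then 3 over- and 9 under-expressed, and 17 over- and 2 under-expressed. Counts for DESeq2, limma, the filters, library size alone, the groups compared alone and leaving out 1 library come without the share of all genes called in the same fit. They describe the members alone, and a change in them may be shared by all genes. For IS against control (4), DESeq2 called 9, filterByExpr 7, no filter 2, the groups compared alone 0, the trend out 1 (Ube2j1, none of the 4) and control replicate 1 and IS replicate 4 left out 19. Leaving out 1 library gave 0 to 14. For oxLDL + pNaKtide against control (5), DESeq2 called 9, library size alone 3, no filter 2, the groups compared alone 0 and the trend out 8, and leaving out 1 library gave 2 to 6. For IS + pNaKtide against control (0), DESeq2 called 6, limma 1, the groups compared alone 7 and control replicate 1 and IS replicate 4 left out 12, and leaving out 1 library gave 0 to 12, the highest without control replicate 1. The difference from the response without an oxidant (11) gave 5 with no filter, and the differences gave 4 to 14 and 7 to 16 when 1 library was left out. Control replicate 1 and IS replicate 4 were singled out by values of these data. Leaving out pNaKtide replicate 3 and oxLDL + pNaKtide replicate 4, chosen after seeing the data, gave 9 for IS against control, 2 for IS + pNaKtide against control and 0 for the difference from the response without an oxidant (5 at an unadjusted p-value under 0.05). With all 4 libraries left out there were 21, 15 and 9, with 1 for IS + pNaKtide against IS and 7 for the difference from the response under IS (13). The other 3 comparisons gave 0 whichever library was left out. Values that changed sign under library size alone were, with oxLDL + pNaKtide against oxLDL -0.15 (Ube2z), -0.020 (Ube2j2), -0.053 (Ube2j1) and -0.22 (Ube2q1). With the trend over GC content and length out they were, with oxLDL against control -0.084 (Ube2a), -0.14 (Ube2e1), -0.34 (Ube2k), -0.33 (Ube2n), -0.37 (Ube2d3) and -0.38 (Ube2d2a), with oxLDL + pNaKtide against oxLDL 0.27 (Ube2a), 0.41 (Ube2d1), 0.17 (Ube2g1), 0.032 (Ube2e1), 0.024 (Ube2w), 0.030 (Ube2e3), 0.43 (Ube2e2), 0.81 (Ube2d3) and 0.91 (Ube2d2a), in the difference from the response without an oxidant 0.0079 (Ube2g1), 0.13 (Ube2e1) and 0.64 (Ube2d3), in the difference from the response under IS 0.062 (Ube2g1) and 0.033 (Ube2e1). The cause was not tested. Depth limits the members with few counts.

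The replicate numbers are not said to mark shared cultures. Same-numbered libraries of different groups correlated at -0.661 to 0.791 (median 0.0995, 75 pairs), and other pairs of libraries at a median of -0.034. Not every same-numbered pair was above 0.1, so the numbers were not taken to pair the libraries. As a hint from the data towards a shared source, 13 of 30 libraries correlated best with one of their own number, which 5 of the 25 libraries in other groups carry. With the replicate block, 9 members were called with IS against control (17% of all genes) and 7 with IS + pNaKtide against control (6.63%). With the block and the trend out, 2 were called with IS against control (6.2%) and 10 with oxLDL + pNaKtide against control (10.8%), and the values that changed sign were, with oxLDL against control -0.084 (Ube2a), -0.14 (Ube2e1), -0.34 (Ube2k), -0.33 (Ube2n), -0.37 (Ube2d3) and -0.38 (Ube2d2a), with IS against control -0.31 (Ube2d2a), with oxLDL + pNaKtide against oxLDL 0.27 (Ube2a), 0.42 (Ube2d1), 0.17 (Ube2g1), 0.033 (Ube2e1), 0.015 (Ube2w), 0.024 (Ube2e3), 0.43 (Ube2e2), 0.80 (Ube2d3) and 0.91 (Ube2d2a), in the difference from the response without an oxidant 0.0081 (Ube2g1), 0.13 (Ube2e1) and 0.60 (Ube2d3), in the difference from the response under IS 0.061 (Ube2g1) and 0.037 (Ube2e1).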
